A study of Mus musculus with 6 samples.

Results

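Leukocytes leave the blood by rolling on the vessel wall, stopping and crossing it, and each step uses a pair of adhesion molecules. Selectins on endothelium (E-selectin and P-selectin) bind the leukocyte glycoprotein PSGL-1 and slow the cell, and integrins on the leukocyte then bind ICAM-1, ICAM-2 and VCAM-1 on the endothelium. CD44 is the receptor for hyaluronan, a sugar polymer of the matrix, and is made by leukocytes and by injured epithelium. In the kidney, ICAM-1 and VCAM-1 are also made by injured tubule cells, and several of these genes are known targets of NF-kB, a transcription factor that the cytokine TNF activates.

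The 10 genes described here (Icam1, Icam2, Vcam1, Sele, Selp, Selplg, Cd44, Itgb2, Itgal and Itga4) were taken by the symbol in the platform annotation, out of 18193 genes on the array. Each gene was read from its probe set with the highest mean intensity, among probe sets that name 1 gene. Whole kidney RNA was measured on 6 Affymetrix arrays, 1 for each combination of 0, 45 or 60 min of clamping of the vessels of 1 kidney and collection at day 1 or day 3 after release. The mice were male FVB/N animals of 6 to 8 weeks and 22 to 26 g, and the 0 min kidneys are the unclamped controls of each day. The labels do not say whether an array held RNA of 1 animal or of a pool. With 1 array per combination, neighbours in an order of values cannot be set against a spread between replicates.

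All values are the deposited linear intensities, and differences are on the log2 scale of intensity plus 16, so a dim gene shows less than its ratio of intensities would. Genes were tested where the mean of that log2 value reached 6.01, the 40th percentile of the array. This held for 12734 genes and for 9 of the 10 adhesion genes, all but Sele. Array medians lay between 81.4 and 95.3. As a check of RNA quality, the beta-actin controls for both transcript ends were compared. The 3' signal exceeded the 5' signal by 1.03 to 1.12 (log2) on 4 arrays. The excess was 0.77 in the 0 min kidney of day 3 and 0.49 in its 60 min neighbour. The same log2 ratio for Gapdh did not set those apart, at -0.23 to -0.20 on day 1 and -0.37 to -0.33 on day 3. Tubule markers were bright on every array, with Umod between 27164 and 39076 and Kap between 38470 and 56882.

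The letters upstream of 3 of the genes are shown because their values took different courses. Icam1 was higher with longer clamping, Cd44 had the largest difference of the group, and Sele stayed dim. The RefSeq table (build GRCm38.p6) held a promoter window for 5 of the 10 genes, and the 250 bases before the start are printed 5' to 3'. They are chr9:21015690-21015939 (plus strand) for Icam1, chr2:102901666-102901915 (minus strand) for Cd44 and chr1:164047984-164048233 (plus strand) for Sele. The Sele window lies inside the RefSeq span of the gene (164039614 to 164058487), so the start meant for Sele is an internal one. Capitals mark a match to the letters GGAANTTCC, a palindromic form of the NF-kB site, or to the TATA box letters TATAAA, on either strand.
Icam1: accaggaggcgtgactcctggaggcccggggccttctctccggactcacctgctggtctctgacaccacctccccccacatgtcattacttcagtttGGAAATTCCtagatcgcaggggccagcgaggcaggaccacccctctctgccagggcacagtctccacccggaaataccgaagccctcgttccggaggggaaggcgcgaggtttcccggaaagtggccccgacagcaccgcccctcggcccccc
Cd44: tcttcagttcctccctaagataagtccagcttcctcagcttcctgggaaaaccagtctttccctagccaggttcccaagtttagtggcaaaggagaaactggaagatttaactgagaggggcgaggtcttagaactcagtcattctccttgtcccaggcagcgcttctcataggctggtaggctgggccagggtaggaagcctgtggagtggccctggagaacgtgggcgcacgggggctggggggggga
Sele: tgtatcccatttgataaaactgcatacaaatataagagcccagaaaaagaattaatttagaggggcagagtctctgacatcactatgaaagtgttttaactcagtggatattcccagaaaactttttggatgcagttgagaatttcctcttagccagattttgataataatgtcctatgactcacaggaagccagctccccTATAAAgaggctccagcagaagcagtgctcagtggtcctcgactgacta
The Icam1 stretch held GGAAATTCC from 153 to 145 bases before the start. Of 32851 promoter windows, 0.813% held the palindromic letters, which were chosen after these sequences had been seen. The kappaB consensus, which more windows matched, was in 7.25% of windows and in 0 of the 5 adhesion gene windows. TATAAA was in 12.4% of windows and, among the 5, in that of Sele only, from 49 to 44 bases before that internal start. The Selp and Itga4 windows held none of the 3 motifs. A site written in other letters would not be marked, so an unmarked stretch does not show that a site is absent. Whether these letters bear on the courses of the genes was not tested.

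Clamped kidneys had more Icam1, Vcam1, Cd44, Itgb2 and Selp transcript than the 0 min kidney of the same day in every one of the 4 comparisons. Such a pattern was seen for 5 of the 9 tested adhesion genes and for 16.7% of all genes tested. The filter used the mean of all 6 arrays, clamped ones included. Selp passed it only through its clamped arrays, since the mean of its 0 min arrays lay below 6.01. Its place in this and later counts of genes higher after clamping is therefore partly set by the filter and lends no support. The estimates ran from 1.80 ± 0.27 for Cd44 to -0.47 ± 0.21 for Itga4 (clamped minus 0 min, ± SE from limma, 6 arrays), with a median of 0.66 over the 9 genes and 0.01 over all genes tested. The residual of the limma fit holds array noise and any change of the clamp differences between days. It is not a spread between replicates, since each combination has 1 array. The test asks whether clamping, over 45 and 60 min and both days, differed from 0 min by more than this residual, which has 2 degrees of freedom. At a limma adjusted p under 0.05 it called 0% of the 12734 genes, and 0 of the 9. At an unadjusted p under 0.05 it gave 1858 genes in either direction, 9.56% of genes higher, and 5 of the 9 adhesion genes higher, the same 5 that were higher in each clamped kidney. With a variance prior that follows the mean and is robust to outliers, limma called 75 genes, among them Vcam1 (adjusted p = 0.0441), Cd44 (adjusted p = 0.0466) and Icam1 (adjusted p = 0.0472). That alternative was applied to single genes after their values had been seen.

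**Figure D1:**
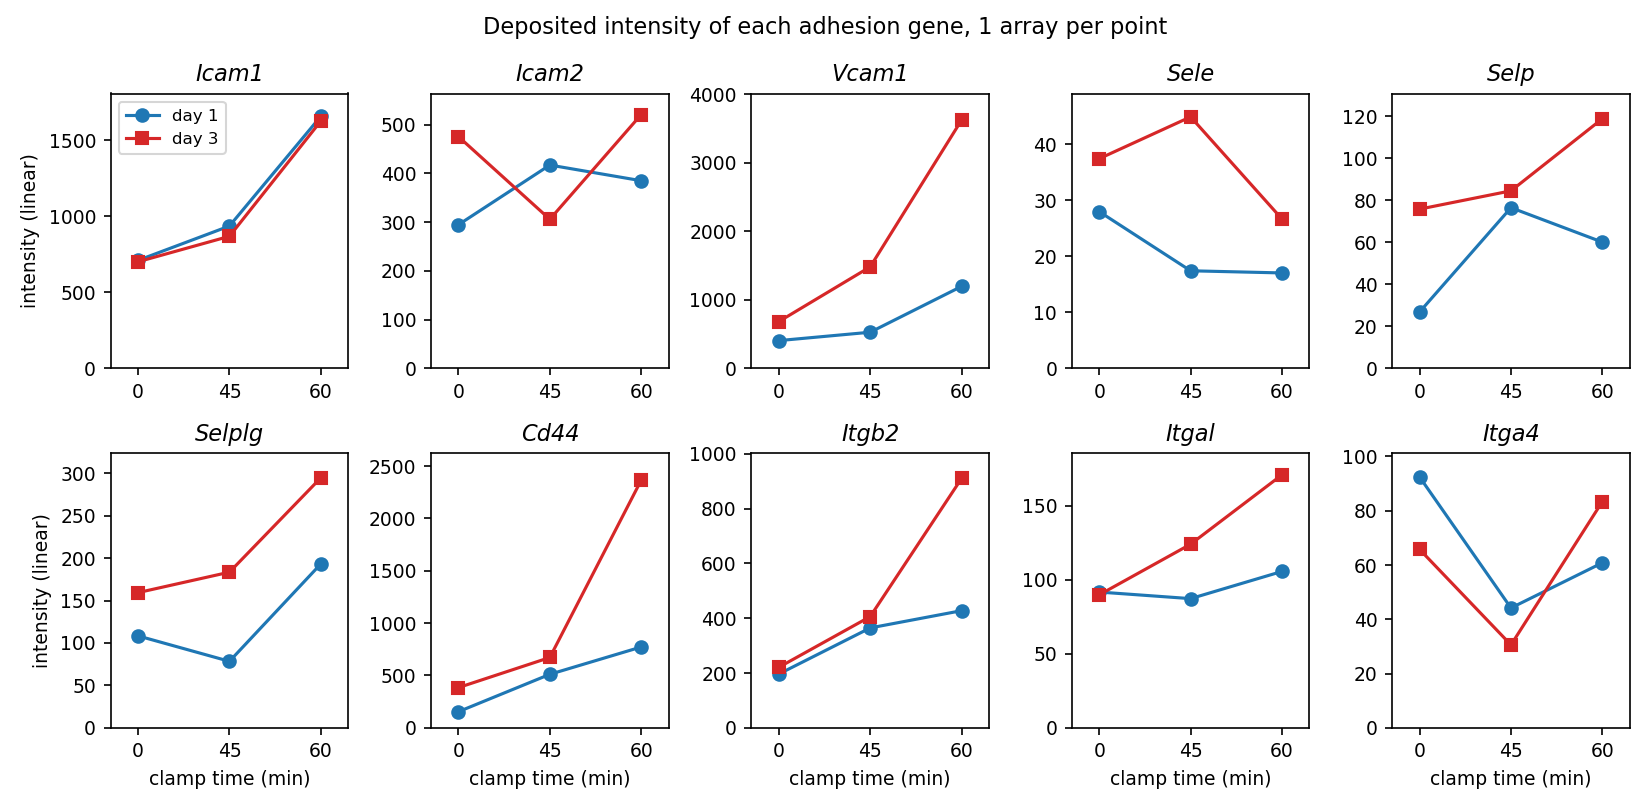
Deposited linear intensity (vertical axis, from 0, scaled for each gene) against clamp time in minutes for the 10 genes, with day 1 as blue circles and day 3 as red squares, 1 array per point. The Icam1 lines of both days overlie each other, the day 3 Vcam1 line lies above the day 1 line at every clamp time, and Cd44 and Itgb2 are highest on the 60 min day 3 array.

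Among the endothelial ligands, Icam1, which encodes the ligand of the beta 2 integrins, followed clamp time and hardly differed between days. Its intensities were 710 at 0 min, 936 at 45 min and 1658 at 60 min on day 1. On day 3 they were 701, 868 and 1627. All 4 clamped kidneys lay above both 0 min kidneys, which was so for 3 of the 9 tested adhesion genes (Icam1, Cd44 and Itgb2) and for 10.9% of genes tested. The estimate was 0.77 ± 0.12 for clamped against 0 min (limma adjusted p = 0.165), and 4.77% of genes tested had a larger value. Between day 3 and day 1 the log2 difference of Icam1 was -0.02 at 0 min, -0.11 at 45 min and -0.03 at 60 min.

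Vcam1 encodes the ligand of the alpha 4 integrins. Its intensities were 404, 526 and 1196 at 0, 45 and 60 min on day 1 and 682, 1481 and 3624 on day 3. The 60 min kidney was the highest of each day, and the 45 min day 1 value (526) lay below the 0 min value of day 3, so the clamped and 0 min groups overlapped. The log2 difference was 1.35 ± 0.22 for clamped against 0 min (limma adjusted p = 0.165), exceeded by 1.26% of genes tested. In the 4 clamped kidneys it was 0.37 (45 min) and 1.53 (60 min) on day 1 and 1.10 and 2.38 on day 3. Unlike for Icam1, the day 3 kidney was above the day 1 kidney at each clamp time, by 0.73 at 0 min, 1.47 at 45 min and 1.59 at 60 min. For day 3 against day 1 in clamped kidneys, Vcam1 had 1.53 ± 0.58, and 0.157% of genes tested had a larger value. In that contrast the SE comes from the difference between the 45 and 60 min kidneys of a day. Its limma adjusted p was 0.997, and that contrast called 0% of genes (522 at an unadjusted p under 0.05, of the 9 adhesion genes Vcam1 only).

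Icam2 encodes a ligand present on resting endothelium and showed no common direction. Its intensities were 295, 417 and 385 at 0, 45 and 60 min on day 1 and 475, 306 and 521 on day 3. The 2 clamped kidneys of day 1 were above their control, while on day 3 the 45 min kidney was below and the 60 min kidney above. The estimate was 0.09 ± 0.25 (limma adjusted p = 0.895) and had the other sign when an array of day 1 was left out, -0.24 for the 0 min and -0.15 for the 45 min array.

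The selectin genes were dim, with intensities of 17.0 to 44.9 for Sele and 26.8 to 119 for Selp. Sele, for E-selectin, which endothelium makes after cytokine exposure, read 28.0 at 0 min, 17.4 at 45 min and 17.0 at 60 min on day 1. The day 3 readings were 37.5, 44.9 and 26.7. In 3 of the 4 comparisons the clamped kidney was below its control, and the mean log2 difference was -0.24. It was not tested, and values this close to the added 16 carry little information on direction.

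Selp, for P-selectin, which endothelium and platelets store, read 26.8 at 0 min, 76.5 at 45 min and 60.1 at 60 min on day 1. The day 3 readings were 75.8, 84.5 and 119. The 0 min day 3 value was near the 45 min day 1 value, so the groups overlapped. Selp passed the filter only through its clamped arrays, which favours a positive value. The difference was 0.66 ± 0.23 for clamped against 0 min (limma adjusted p = 0.313). It depended on the controls: leaving out the 0 min array of day 1 gave 0.34, and leaving out that of day 3 gave 0.97.

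Selplg encodes PSGL-1, the selectin ligand of leukocytes. Its intensities were 108, 78.4 and 193 on day 1 and 159, 183 and 295 on day 3. The 60 min kidney was the highest of each day, and the 45 min day 1 kidney was the lowest of the 6. The difference was 0.34 ± 0.17 for clamped against 0 min (limma adjusted p = 0.425) and 0.89 ± 0.20 for 60 against 45 min (limma adjusted p = 0.306). The first of these was 0.51 when the 0 min array of day 1 was left out, 0.18 for that of day 3 and 0.20 for the 45 min array of day 3.

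Cd44 had the largest difference of the 9 genes. Its intensities were 154, 511 and 772 at 0, 45 and 60 min on day 1 and 385, 672 and 2365 on day 3. All clamped kidneys lay above both controls, the 60 min day 3 kidney far above the others. The log2 differences were 1.63 and 2.21 at 45 and 60 min of day 1 and 0.78 and 2.57 on day 3. The estimate of 1.80 ± 0.27 (limma adjusted p = 0.165) was exceeded by 0.463% of genes tested. Leaving out the 45 min array of day 3 gave 2.06 (limma adjusted p = 0.0316, when 200 genes were called). Leaving out the 60 min array of that day gave 1.60. The controls also differed: at 0 min, Cd44 was higher on day 3 than on day 1 by 1.23, a ratio of intensities of 2.49.

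The leukocyte integrins were led by Itgb2, which encodes the beta 2 chain shared by LFA-1 and Mac-1. Its intensities were 196, 365 and 428 on day 1 and 221, 406 and 910 on day 3. All clamped kidneys were above both controls, and the controls of the days differed by only 0.16. The estimate was 1.18 ± 0.24 (limma adjusted p = 0.200), exceeded by 1.75% of genes tested, and was 0.95 without the 60 min day 3 array.

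Itgal, for the alpha chain of LFA-1, the partner of Itgb2, read 91.7 at 0 min, 87.2 at 45 min and 106 at 60 min on day 1. The day 3 readings were 89.8, 124 and 171. Only the 60 min day 3 and 45 min day 3 kidneys stood clear of the rest, and the estimate was 0.33 ± 0.18 (limma adjusted p = 0.440). It rested on the controls, being 0.06 with the 0 min array of day 3 left out and 0.61 with that of day 1 left out. Itga4, for the alpha 4 chain that binds VCAM-1, had 92.4, 44.2 and 60.8 on day 1 and 65.8, 30.6 and 83.4 on day 3 on its brightest probe set. It was the single tested gene of the group with a negative estimate, -0.47 ± 0.21 (limma adjusted p = 0.388). Leaving out the 0 min array of day 1 gave -0.27. Its other probe sets did not share that direction.

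**Figure D2:**
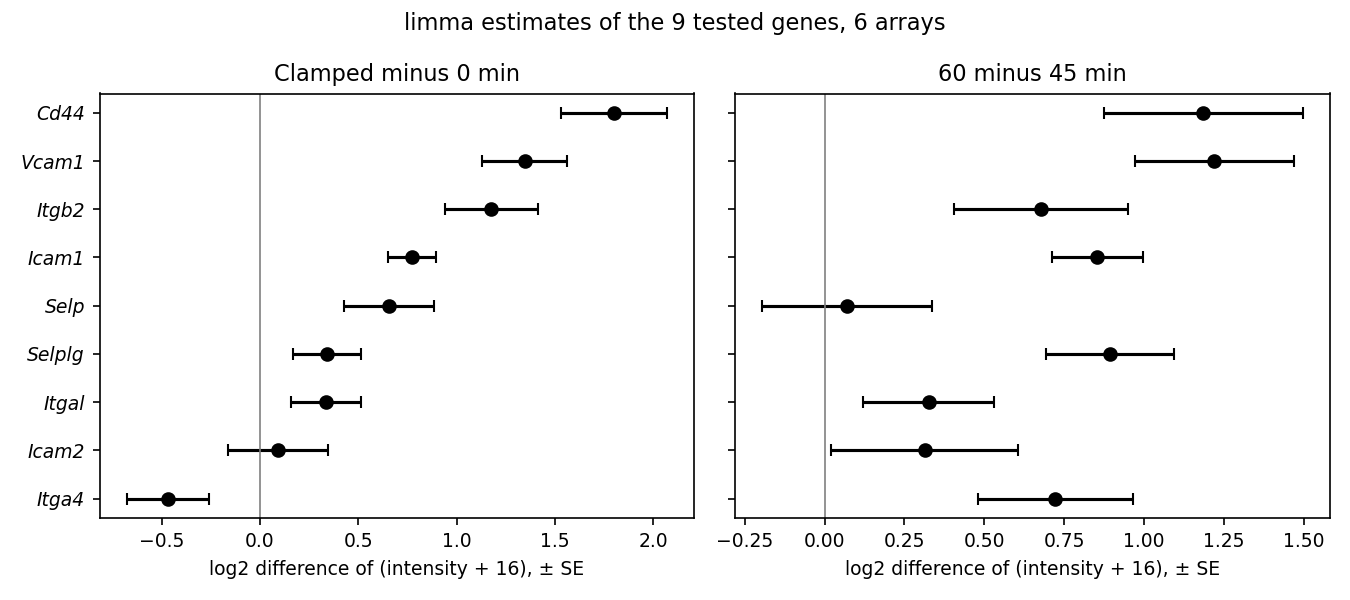
limma estimates (points) with standard errors (bars) for the 9 tested genes, as log2 differences of intensity plus 16, for clamped minus 0 min (left) and 60 minus 45 min (right), from 6 arrays. Cd44 is highest on the left at 1.80 and Itga4 lowest at -0.47, while on the right Vcam1 is highest at 1.22 and Selp lowest at 0.07.

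The 10 genes had 22 probe sets in all, and 5 genes had more than 1. For Vcam1, all 3 probe sets were higher in each clamped kidney, with mean differences of 0.67 to 1.41. For Cd44, 3 of 4 were higher in each clamped kidney (1.46, 1.80 and 2.32), and the 4th was dim, at 1.23 to 15.7. Selp had 3 probe sets that were higher in each clamped kidney, although 2 of them never exceeded 18.7. Itgal had 2 with estimates of 0.33 and 0.17. Itga4 was the only gene whose probe sets differed in sign: the 4 other probe sets had 0.13 to 0.62, and the mean over all 5 was 0.17. Its direction is thus unsettled on this array. How far the probe sets cover different transcripts was not tested.

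**Figure D3:**
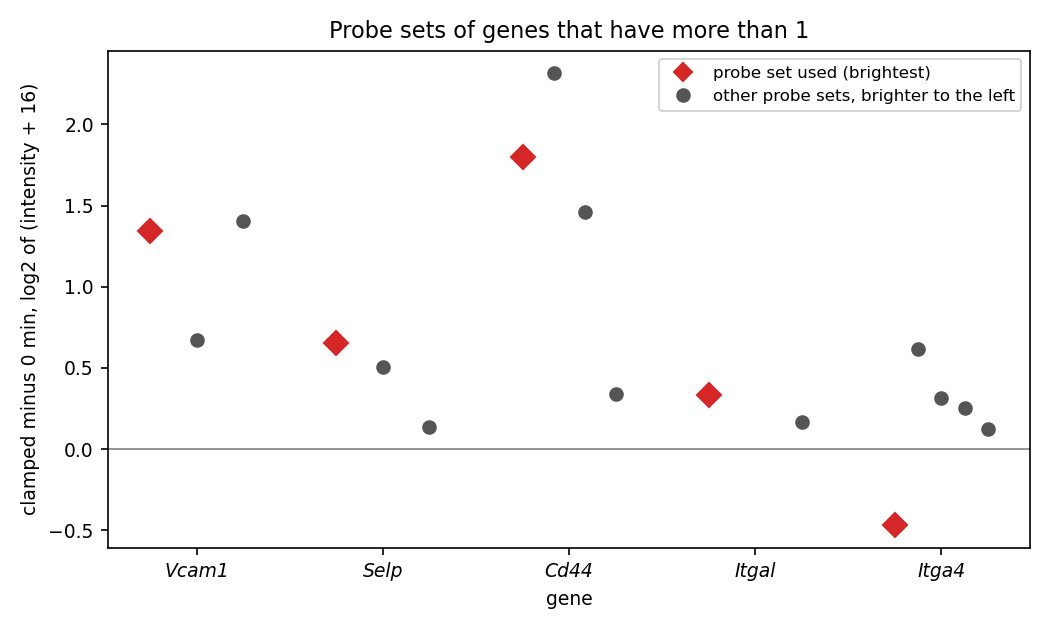
Clamped minus 0 min difference (log2 of intensity plus 16) for every probe set of the 5 genes that have more than 1, with the probe set used as a red diamond and the others as grey circles, brighter probe sets to the left. All probe sets lie above 0 except the brightest Itga4 probe set, at -0.47.

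Each clamped kidney was next set against its control alone, with no replicate and therefore by size. At 45 min on day 1, 2 of the 9 genes (Selp and Cd44) were at least 2-fold higher, against 3.57% of genes tested, with a median of 0.39. At 60 min on day 1, Icam1, Vcam1, Cd44 and Itgb2 were (4 of 9, against 4.39%), with a median of 0.83. At 45 min on day 3 it was Vcam1 alone (1 of 9, against 1.5%), with a median of 0.30. At 60 min on day 3 it was again Icam1, Vcam1, Cd44 and Itgb2 (4 of 9, against 7.58%), with a median of 0.82. None of the 9 was at least 2-fold higher in all 4 comparisons, as 0.181% of genes were, and none was 2-fold lower in any on this scale. As plain ratios of intensity, Itga4 was at 0.478 and 0.465 of its control at 45 min of days 1 and 3. The median over all genes tested was between -0.03 and 0.04 in these comparisons, which share a control within each day.

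The longer clamp was compared with the shorter one to ask what the added minutes changed. Of the 9 genes, 7 were higher after 60 than after 45 min on both days (35.4% of genes tested), all but Icam2 and Selp. The largest estimates were 1.22 ± 0.25 for Vcam1 and 1.19 ± 0.31 for Cd44 (limma adjusted p = 0.306 and 0.335), followed by Selplg at 0.89 and Icam1 at 0.85 ± 0.14 (adjusted p = 0.306). The order of these genes depended on the probe set. The other Vcam1 probe sets gave 0.32 and 0.81, with a mean over all 3 of 0.78, and the mean for Cd44 was 0.94. The median estimate was 0.72 over the 9 and 0.05 over all genes tested. limma called 0% of genes at an adjusted p under 0.05. At an unadjusted p under 0.05 it gave 1661 genes, 7.76% of genes higher, and 5 of the 9 higher (Icam1, Vcam1, Selplg, Cd44 and Itga4). By size on day 1, Vcam1 and Selplg were at least 2-fold higher after 60 min (2 of 9, against 1.02%). On day 3, Vcam1, Cd44, Itgb2 and Itga4 were (4 of 9, against 5.96%). The Itga4 values are those of its brightest probe set. Its other probe sets had 60 minus 45 min differences of 0.47, 0.28, -0.09 and -0.09. The Itgb2 estimate of 0.68 ± 0.27 rested on the 60 min day 3 array and was 0.22 without it. That of Selp, 0.07, had the other sign when a clamped day 3 array was left out, -0.35 for 45 min and -0.04 for 60 min. That of Cd44 was 0.67 without the 45 min array of day 3.

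Between days, Vcam1, Cd44 and Itgb2 were at least 2-fold higher on day 3 than on day 1 after 60 min (3 of 9, against 3.01% of genes tested). After 45 min it was Vcam1 and Selplg (2 of 9, against 1.19%). The unclamped kidneys differed too: Selp and Cd44 were at least 2-fold higher at day 3 (2 of 9, against 1.71%), and the median over the 9 was 0.50, against -0.0011 over all genes tested. No gene of the 9 was at least 2-fold lower on day 3 at any clamp time. The fit for the contrasts between days put the 45 and 60 min kidneys of a day in 1 cell. Its SE therefore holds the difference between clamp times and is not a spread between replicates. The clamped minus 0 min difference of Vcam1 was greater on day 3 than on day 1 by 0.79 ± 1.00. For this interaction with day the limma adjusted p was 1 for each of the 9 genes, and limma called 0% of genes for it (282 at an unadjusted p under 0.05, 0 of the 9).

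These are whole kidneys, in which more cells of a type and more RNA per cell cannot be told apart. Markers of leukocytes were higher on the same arrays as the adhesion genes. All 7 tested pan-leukocyte markers, such as the phosphatase gene Ptprc, had positive estimates for clamped against 0 min, with a median of 0.84, and 6 were higher in each clamped kidney. Their median was 0.41 and 0.59 at 45 and 60 min of day 1 and 0.28 and 1.69 on day 3. The summed intensity of the 8 on the array was 2019 and 3041 in the 0 min kidneys and 3317 to 9746 in clamped kidneys, highest on the 60 min day 3 array. Ptprc itself went from 406 to 657 and 620 on day 1 and from 731 to 890 and 1818 on day 3. Their part in the differences of Itgb2, Selplg and Cd44 was not tested.

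Markers of other blood cells differed less evenly. All 9 monocyte and macrophage markers had positive estimates (median 1.18), with summed intensities of 4935 and 8834 at 0 min and 8365 to 32021 in clamped kidneys. The 4 tested neutrophil markers had a median of 0.43, but Csf3r and Ngp among them passed the filter only through the clamped arrays. Of those that did not pass, Mpo (-0.48) and Camp (-0.38) were lower in clamped kidneys. The neutrophil receptor gene Cxcr2 (0.17) did not pass either and was below 16 on every array. The 7 neutrophil markers on the array summed to 986 and 1060 at 0 min and 1111 to 1619 in clamped kidneys. Of 4 tested lymphocyte markers 2 were above 0 (median -0.08), Cd79b and Klrd1, which also passed the filter only through the clamped arrays. The sums were 318 and 494 at 0 min and 291 to 514 in clamped kidneys, and Cd4 and Cd79a were below 16 throughout. Of 3 tested platelet markers 2 were above 0 (median 0.35), with sums of 891 and 1258 at 0 min and 1047 to 2735 in clamped kidneys, and Gp9 was below 16 throughout.

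Endothelial markers gave differences in both directions, with a median near 0. The 10 of them had a median of -0.01, 5 of them above 0, and their summed intensity was 11175 and 11194 at 0 min and 10117 to 12333 in clamped kidneys. At a limma unadjusted p under 0.05, 1 was lower and 0 were higher. The lower one was the VEGF receptor gene Kdr (-0.42 ± 0.14), at 788 and 1060 in the 0 min kidneys and at 486 to 838 in clamped ones. The brighter Plvap and Emcn had 0.11 and 0.14. Over the same arrays the 5 tested markers of injured tubules had a median of 2.29 and were all higher in each clamped kidney, and 7 of 8 fibroblast and pericyte markers were above 0 (median 0.86). The sums were 10488 and 11522 at 0 min and 22335 to 56411 in clamped kidneys for injured tubule markers, and 14730 and 23002 against 33604 to 58300 for fibroblast and pericyte markers. The 8 markers of uninjured tubules all had negative estimates (median -0.32), and 2 of them, Lrp2 and Slc12a1, were lower at an unadjusted p under 0.05. Their median was -0.21 and -0.40 at 45 and 60 min of day 1 and -0.05 and -0.58 on day 3, and their sums were 153239 and 168026 at 0 min and 115017 to 172253 in clamped kidneys. The steepest was Slc12a3, a transporter of the distal tubule, at 4880 and 4575 at 0 min and 888 in the 60 min day 3 kidney. The part of tubule cells and fibroblasts in the differences of Icam1, Vcam1 and Cd44 was not tested.

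**Figure D4:**
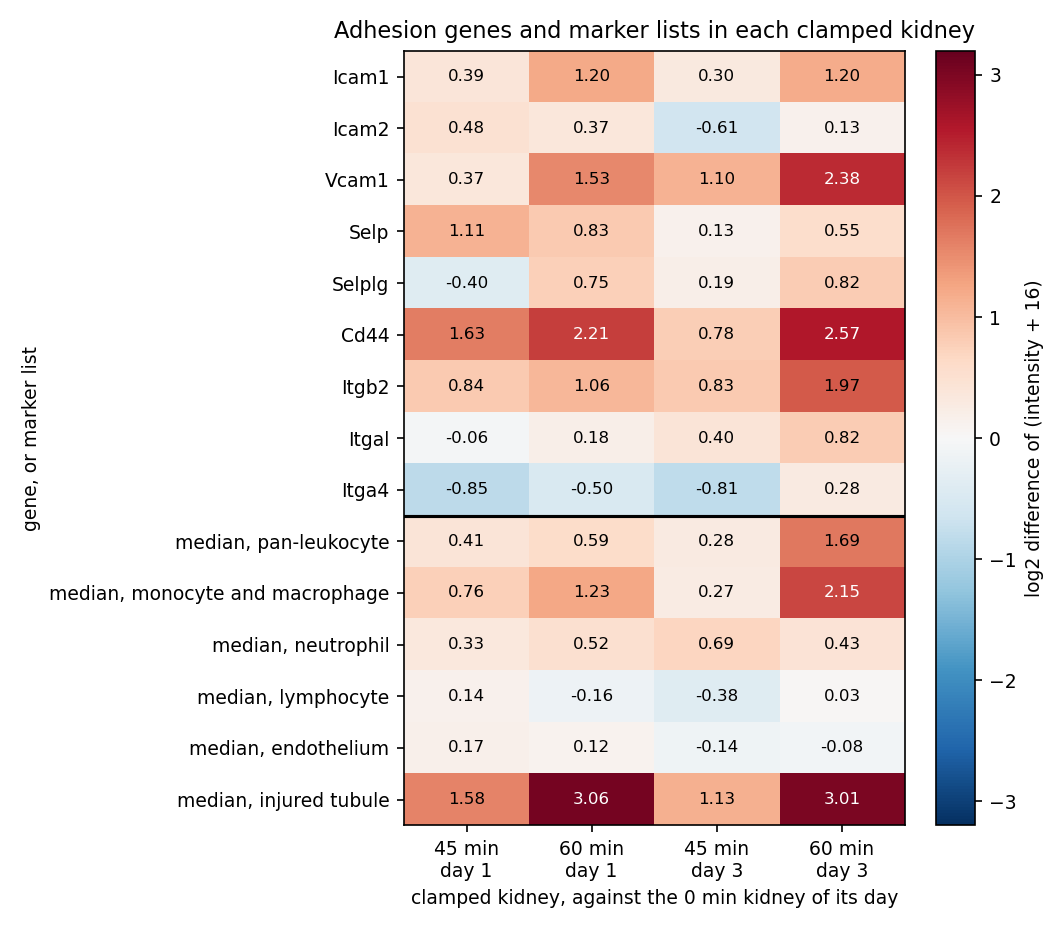
Log2 difference of intensity plus 16 between each clamped kidney (columns) and the 0 min kidney of its day, for the 9 tested genes (upper rows) and as the median of 6 marker lists (lower rows), with red for higher and blue for lower. The pan-leukocyte median is highest in the 60 min day 3 kidney (1.69), where Itgb2 is also highest (1.97), and the endothelial medians lie between -0.14 and 0.17.

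The rest of the adhesion pathway was described from lists of genes by role. For clamped against 0 min, limma called 0 members of these 5 lists in either direction at an adjusted p under 0.05, so the counts that follow are of unadjusted p under 0.05, where 9.56% of genes tested were higher. Of 14 tested ligands, cytoskeletal partners and proteases of CD44, 6 were higher, with a median of 0.37. The proteoglycan gene Vcan, whose product binds hyaluronan, went from 76.1 to 179 and 238 on day 1 and from 76.1 to 179 and 261 on day 3 (1.30 ± 0.13, limma adjusted p = 0.131). The matrix gene Fn1, for fibronectin, had 1.24 ± 0.31 (limma adjusted p = 0.225). Of 8 tested other integrins and leukocyte receptors, 2 were higher (median 0.25): Itga9, for the alpha chain of another VCAM-1 receptor, at 1.38 ± 0.44, and Itgax at 0.63 ± 0.16. Itga9 was at 79.0 on the 0 min day 1 array and at 291 on that of day 3, against 349 to 472 in clamped kidneys.

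Of 9 tested genes of integrin activation, 2 were higher (median 0.17), and they included Fermt3, for the leukocyte kindlin that switches integrins on, at 0.84 ± 0.32 and Fyb, for an adaptor of integrin signalling, at 0.73 ± 0.19. Fermt3 was at 255 and 393 at 0 min, at 411 to 475 in 3 clamped kidneys and at 1328 in the 60 min day 3 kidney. Of 12 tested endothelial adhesion and junction genes, 3 were higher (median 0.12), Mcam at 0.77 ± 0.18 (limma adjusted p = 0.210), Alcam at 0.43 ± 0.15 and Pecam1 at 0.38 ± 0.14. Cd34, for a sialomucin of the vessel wall, was not among them, at 0.50 ± 0.23 (limma adjusted p = 0.395). Of 9 tested genes that build selectin ligands, 1 was higher (median 0.15), the sulfotransferase gene Chst2 at 0.74 ± 0.16, while the fucosyltransferase gene Fut4 was not among those higher, at 0.58 ± 0.31. In these 5 lists 0 genes were lower at an unadjusted p under 0.05.

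Likeness between genes was measured as the root mean square difference of their log2 profiles over the 6 arrays, each profile minus its own mean. The genes nearest to Icam1 were Chst13 (0.08), Rras (0.09) and Efhd2 (0.09), and those nearest to Itgb2 were Cmtm3 (0.08), Fam83d (0.11) and the chemokine gene Ccl12 (0.12). Nearest to Cd44 were the cell cycle genes Cdkn3 (0.16) and Ccnb2 (0.19) and the chemokine gene Ccl5 (0.18). Vcam1 had no gene as close, with Aoc1 (0.28), the complement factor gene Cfi (0.28) and Egr1 (0.32) first. Within the group, Selplg and Itgal were the closest pair (0.33), Icam1 was closest to Itgb2 (0.38) and Vcam1 to Cd44 (0.41), and Cd44 and Itga4 were the farthest apart (1.25).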

How the data were processed

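Mouse kidney RNA was measured on 6 Affymetrix arrays, labelled from total RNA with a 3' IVT kit per the labels' protocols. The authors deposited linear intensities and, per the submitters' processing notes, used Affymetrix Expression Console. Neither its version nor the summarisation method is given there. The mean after trimming 2% at each end was 500.003 on every array, so the deposited intensities had been scaled to a common target. The labels name no batch.

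Of 45101 probe sets, 34945 had 1 gene symbol, and 34741 of these matched a RefSeq gene (0 symbols changed). log2(intensity + 16) was analysed with limma 3.58.1 in R 4.3.3 (lmFit, eBayes, Benjamini-Hochberg over 12734 genes). Clamped against 0 min and 60 against 45 min came from clamp time plus day. The contrasts between days came from 4 cells (0 min or clamped, by day). Single arrays were compared at 2-fold, with no test. The limma code was tested on simulated data. Pathway genes named were the 2 per list with the largest difference. Alcam and Pecam1 were named besides, being higher at a limma unadjusted p under 0.05. Likeness took the 3 nearest genes of 4 adhesion genes. The members and lists were chosen with earlier results of these data known. Alternatives were other scalings, pseudocounts, filters, probe set rules and priors, and leaving out each array.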

Additional observations from a re-analysis of the deposited data

How the results depend on the processing

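With 1 array per combination and 2 residual degrees of freedom, the number of arrays limits every value, and dim genes (Sele, Selp, Itga4, Itgal) lie closest to background. The count of genes called for clamped against 0 min, 0, became 1 with median centring, 1 with no day term and 75 with a robust variance trend, and ran from 0 to 200 when 1 array was left out (200 without the 45 min day 3 array). For 60 against 45 min and for both contrasts between days it was 0 under every alternative that could be fitted. Without a 0 min array the change of the clamp effect could not be fitted. The number of the 9 genes at least 2-fold higher became, with a pseudocount of 64, 1 at 45 min day 1, 1 for 60 against 45 min day 1, and 1 for day 3 against day 1 at 0 min and at 45 min. Larger added values shrink differences of dim genes by construction. With the mean of all probe sets it was 1 at 45 min day 1, 0 at 45 min day 3, 1 and 2 for 60 against 45 min on days 1 and 3, and 0 for day 3 against day 1 at 0 min. The cause was not tested. Of 45 such counts, 36 stayed within 1.5 times the reported one.

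Of the single-gene values under an alternative, 258 kept their sign and side of the threshold, 4 passed the threshold and 5 changed sign. With arrays left out in turn, Icam2 ran from -0.24 to 0.42 for clamped against 0 min (-0.15 without 45 min day 1) and from -0.17 to 0.80 for 60 against 45 min, and Selp from -0.35 to 0.49 for the latter (-0.04 without 60 min day 3). The cause was not tested. Over the alternatives, the limma adjusted p for clamped against 0 min ran from 0.0316 to 0.598 for Cd44, 0.0441 to 0.546 for Vcam1, 0.0472 to 0.62 for Icam1 and 0.0757 to 0.598 for Itgb2. Median centring moved single arrays by -0.12 to 0.07 and left every sign of the 9 genes unchanged in both contrasts. No paired analysis was possible because the labels give no replicate numbers, and day was a term of the fit.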
